A study of Mus musculus with 141 samples.

Results

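The IGF binding protein genes *Igfbp2*, *Igfbp3*, *Igfbp4*, *Igfbp5*, *Igfbp6* and *Igfbp7* and the receptor genes *Igf1r*, *Igf2r* and *Insr* were described in single tdTomato+ cells of the adult mouse lung. These 9 genes were chosen by name, as the paralogs of *Igfbp2* and the receptors of the pathway that are rows of the count table, which holds 17136 genes. The cells came from the lungs of 1 male mouse of 4 months, labelled strain 129SV and genotype ACID;R26tdTomato, in which Cre recombinase knocked in at the *Aqp5* locus removes a stop cassette in front of tdTomato. Cre is constitutive, so tdTomato can mark cells whose ancestry expressed *Aqp5*, and a tdTomato read was found in 71 of the 92 kept cells described below. The mouse also carries the DsRed reporter of the knock-in. Cells were sorted as CD31- CD45- E-cadherin+ tdTomato+ and captured on a Fluidigm C1 chip with 20 columns. With 1 mouse and 1 sorted population there are no replicates and no test between classes. All intervals are exact 95% Poisson or binomial (Clopper-Pearson) intervals, and they cover counting error only, because reads without molecular identifiers are copies made by PCR.

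A share of mitochondrial reads (mt- genes) below 0.15 kept 92 of the deposited cells and removed 49. The kept cells had 142003 to 2170760 reads each. Every cell carries the label alveolar type 1, but the marker genes split them. AT1 cells were defined by at least 5000 CPM (reads scaled to 1000000 reads) of *Ager* and numbered 45 of 92 (48.9%, 38.3 to 59.6). AT2 cells were defined by at least 8000 CPM of *Sftpc*, numbered 11, and the rest held 36. The AT1 cell with the least *Ager* had 9335 CPM and the highest cell outside had 1402 CPM. The AT2 cell with the least *Sftpc* had 25437 CPM and the highest cell outside had 7774 CPM. The AT1 cells had 10 to 15 of 15 AT1 markers at 100 CPM or more. Of 7 fibroblast markers 5 had reads in AT1 cells, and of 6 endothelial markers 2 did. Per AT1 cell, the summed fibroblast markers reached no more than 7.17 CPM and the endothelial markers 2.78 CPM. The rest was divided by marker lists, with at least 40% of a list at 100 CPM or more, into 13 ciliated-marker, 14 club-marker, 6 basal-marker and 2 fibroblast-marker cells and 1 unnamed cell, a limit that was set after the values had been seen. Of the 13 ciliated-marker cells 10, and all 6 basal-marker cells, also passed the limit of the club list, and 1 AT2 cell (chip column 16, row 6) had 6 of 9 club markers. The club limit was also passed by 5 of the 45 AT1 cells. AT1 cells had up to 7 of 9 club markers, with a summed club level of up to 6043 CPM and a median of 519 CPM. They had up to 2 of 10 ciliated markers at 100 CPM or more, with a summed ciliated level of up to 5851 CPM and a median of 1364 CPM. *Sftpc* was read in all 81 cells outside the AT2 class, with a median of 64.7 CPM.

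Insulin-like growth factors act through the IGF1 receptor, a tyrosine kinase, while the cation-independent mannose 6-phosphate receptor encoded by *Igf2r* takes up IGF2 for degradation. Most IGF in tissue fluid is held by secreted binding proteins, which prolong its life and can keep it from its receptor or deliver it. IGFBP2 is a known product of mature AT1 cells, the flat cells that form the gas exchange surface, and IGFBP7 binds IGF weakly and also binds insulin and matrix. The ligand genes *Igf1* and *Igf2* were not analysed here.

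The binding protein genes lie at several places in the genome (GRCm38, GENCODE vM21). *Igfbp2* (chr1:72824503-72852474, plus strand) and *Igfbp5* (chr1:72857932-72874884, minus strand) face each other tail to tail with 5457 bases between their ends. *Igfbp6* is at chr15:102144362-102149511 and *Igfbp7* at chr5:77349240-77408041. The 250 bases before the RefSeq start (GRCm38.p6) of these 4 genes are printed because they are the binding protein genes with reads in most AT1 or ciliated-marker cells, and capitals mark every match to a searched motif on either strand. The motifs were the GC box (GGGCGG), the TATA box as its core of letters (TATAAA), the TEAD factor motif of Hippo signalling (GGAATG), the half-site of the RFX factors of ciliated cells (GTTGCC), the AP-1 motif, in which N is any base (TGANTCA), and the motif of NKX2-1, the lung lineage factor (CAAGTG). The windows are chr1:72824230-72824479 (plus strand), chr1:72874866-72875115 (minus strand), chr15:102143936-102144185 (plus strand) and chr5:77408046-77408295 (minus strand). The RefSeq and GENCODE starts differ. The *Igfbp6* window ends at 102144185, short of the GENCODE start at 102144362, so the bases next to that start were not searched. The *Igfbp5* window begins at 72874866, inside the GENCODE gene, which reaches 72874884.
Igfbp2: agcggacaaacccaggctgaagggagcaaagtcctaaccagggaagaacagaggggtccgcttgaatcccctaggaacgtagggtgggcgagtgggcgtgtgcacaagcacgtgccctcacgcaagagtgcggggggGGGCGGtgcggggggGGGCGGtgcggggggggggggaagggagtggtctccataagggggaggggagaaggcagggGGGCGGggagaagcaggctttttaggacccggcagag
Igfbp5: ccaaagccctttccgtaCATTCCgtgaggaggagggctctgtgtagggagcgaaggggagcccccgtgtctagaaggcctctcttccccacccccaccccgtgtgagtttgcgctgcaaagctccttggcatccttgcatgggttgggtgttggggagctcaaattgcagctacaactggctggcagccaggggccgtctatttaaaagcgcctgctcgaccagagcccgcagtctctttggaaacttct
Igfbp6: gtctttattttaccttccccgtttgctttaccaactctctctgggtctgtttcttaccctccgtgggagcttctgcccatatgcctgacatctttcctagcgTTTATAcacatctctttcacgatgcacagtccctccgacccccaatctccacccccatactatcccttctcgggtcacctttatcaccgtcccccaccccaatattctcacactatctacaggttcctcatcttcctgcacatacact
Igfbp7: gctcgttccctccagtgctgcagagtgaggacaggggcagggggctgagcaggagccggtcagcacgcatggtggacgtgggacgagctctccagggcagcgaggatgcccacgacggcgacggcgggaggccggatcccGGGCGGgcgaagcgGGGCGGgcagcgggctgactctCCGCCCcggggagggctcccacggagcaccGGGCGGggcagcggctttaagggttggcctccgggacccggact
The *Igfbp2* window had 3 GC boxes and the *Igfbp7* window 4, while those of *Igfbp5* and *Igfbp6* had 0. A GC box occurred in 32.7% of the same windows of 32851 promoters. G and C made up 67.2% of the *Igfbp2* window, 74% of the *Igfbp7* window, 58.8% of the *Igfbp5* window and 49.6% of the *Igfbp6* window, against a median of 52.4% over all promoters. The *Igfbp5* window had 1 TEAD motif match (12.6% of promoters) and the *Igfbp6* window 1 TATA box match starting 148 bases before the start (12.4% of promoters). RFX half-sites, AP-1 motifs and NKX2-1 motifs, found in 10.4%, 6.75% and 11.6% of promoters, did not occur in these 4 windows.

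The AT1 cells had many reads of 3 binding protein genes, *Igfbp7*, *Igfbp6* and *Igfbp2*, and almost no *Igfbp3*, *Igfbp4* or *Igfbp5*. Summed over AT1 cells, *Igfbp7* stood at 1754 CPM, *Igfbp6* at 829 CPM and *Igfbp2* at 337 CPM. Per kb of exon the order was kept, with 1451 CPM per kb for *Igfbp7*, 746 for *Igfbp6* and 183 for *Igfbp2*, while *Igf2r* had 9.21, *Igf1r* 1.96 and *Insr* 0.991 CPM per kb. The values per kb assume that reads scale with exon length, and how reads fall along each transcript was not tested. Where reads gather at an end of the transcript, the division lowers long genes, such as *Igf1r* (16.8 kb of exon) against *Igfbp6* (1.11 kb). Against all 47 other kept cells, 5 of the 9 members were at least 2-fold higher in AT1 cells, where 32.4% of all 10194 genes tested (10 CPM or more in either group) were, and 4 were at least 2-fold lower, where 34% were. The higher members were *Igfbp2*, *Igfbp6*, *Igfbp7*, *Igf1r* and *Igf2r*, and the lower ones *Igfbp3*, *Igfbp4*, *Igfbp5* and *Insr*. Without the 2 fibroblast-marker cells the number of lower members dropped to 1, *Igfbp5*.

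**Figure D1:**
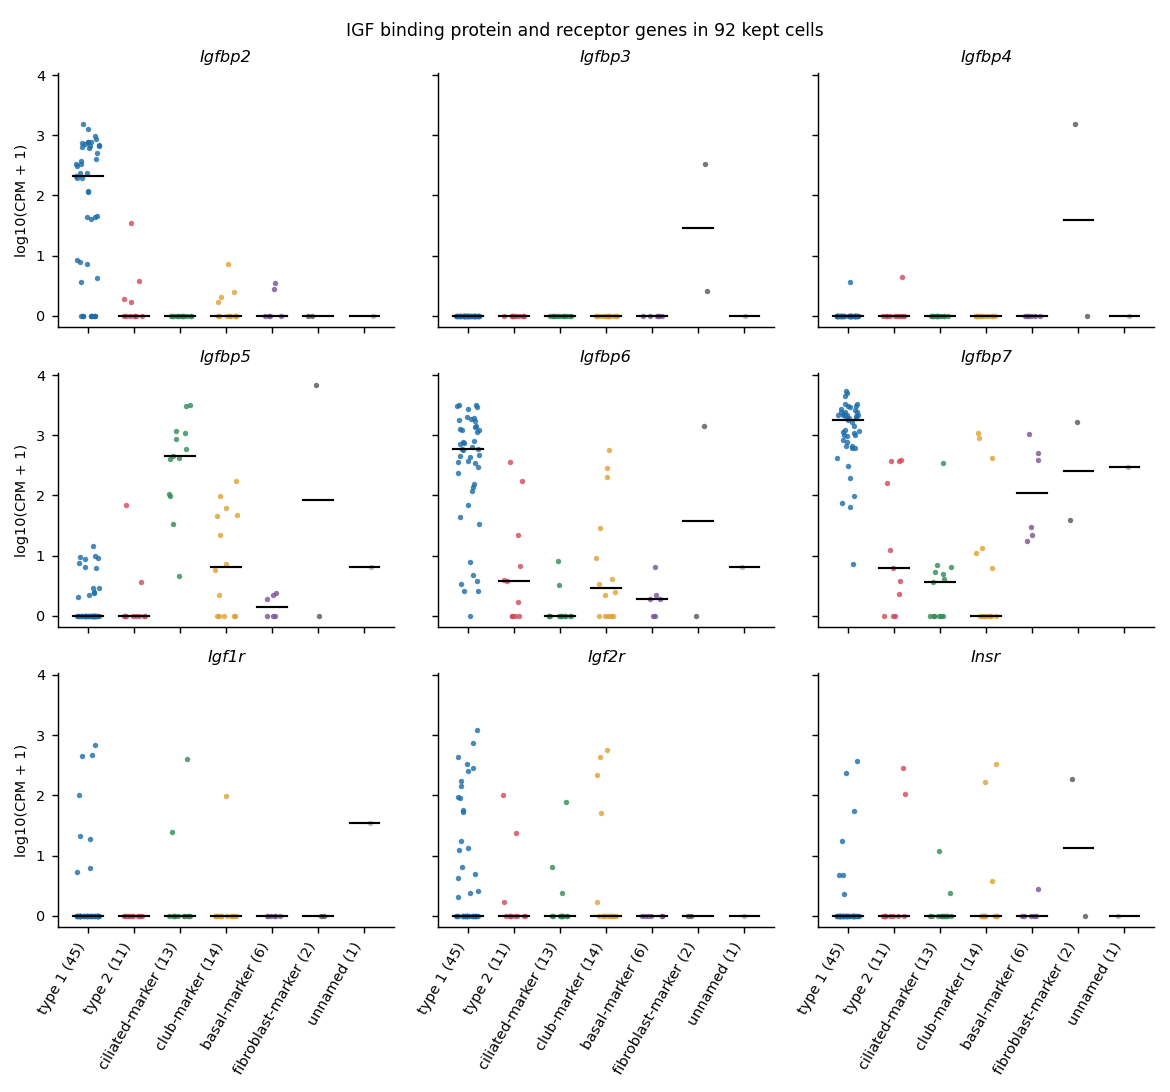
Each panel plots 1 gene in the 92 kept cells as log10(CPM + 1) by class, with the number of cells in parentheses, 1 point per cell and a bar at the median. AT1 cells (type 1) carry *Igfbp2*, *Igfbp6* and *Igfbp7*, ciliated-marker cells carry *Igfbp5*, and the receptor genes have reads in fewer AT1, AT2, ciliated-marker, club-marker and basal-marker cells than not.

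*Igfbp2* was read in 36 of 45 AT1 cells (80%, 65.4 to 90.4), from 0 to 1565 CPM with a median of 207 CPM. In the 11 AT2 cells it had 10 reads in 4 cells, 6 of them in the cell at chip column 16, row 6, whose 34.5 CPM was the highest value outside the AT1 class. In the rest it had 8 reads in 6 of 36 cells, with 0 reads in the 13 ciliated-marker cells. Of the AT1 cells, 31 were above every other kept cell and 9 had 0 reads, so the groups overlapped at the low end only. The summed level was 337 CPM (330 to 345) in AT1 cells and 0.537 CPM in all other kept cells, a 628-fold ratio (log2 9.29, 8.63 to 10.05). It was 6.65 on the log2 scale with the *Ager* limit at 10000 CPM, which moves 1 AT1 cell to the others, 7.99 with scran size factors and 8.26 with the mean of the CPM of cells. Against AT2 cells the log2 ratio was 7.77 (6.89 to 8.83), and 9.05 without the AT2 cell with club markers.

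*Igfbp6*, whose product binds IGF2 in preference to IGF1, was read in 44 of 45 AT1 cells, from 0 to 3194 CPM with a median of 590 CPM. AT2 cells ranged from 0 to 356 CPM with a median of 2.76 CPM, and 7 of 11 had a read. The rest ranged from 0 to 1436 CPM with a median of 0, and the highest value belonged to the fibroblast-marker cell at chip column 8, row 21, which held 52.1% of the reads of that group. Of the AT1 cells 10 were above every other kept cell, and 6 of the 47 others reached 100 CPM. Within the rest, the 14 club-marker cells had 142 CPM and 9 cells with a read, but a median of 1.92 CPM, and 1 cell held 74.9% of the reads (43.9 CPM without it). The 6 basal-marker cells had 1.21 CPM and 13 ciliated-marker cells 0.263 CPM. The log2 ratio of AT1 cells to all other kept cells was 2.92 (2.87 to 2.97), and to AT2 cells 4.84 (4.63 to 5.05). The log2 ratio to AT2 cells was 2.34 with the *Sftpc* limit at 4000 CPM, 6.14 without the highest cell of each class, and 4.02 in chip columns 1 to 10 against 8.35 in columns 11 to 20. The log2 ratio to all other kept cells was 3.79 without the fibroblast-marker cells. It also differed along the chip, being 2.54 in columns 1 to 10 against 6.21 in columns 11 to 20.

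*Igfbp7* was read in all 45 AT1 cells, from 6.40 to 5411 CPM with a median of 1764 CPM. In AT2 cells it ranged from 0 to 380 CPM with a median of 5.25 CPM, and in the rest from 0 to 1632 CPM with a median of 4.78 CPM. Of the AT1 cells 24 were above every other kept cell, while 13 of the 47 others reached 100 CPM, so the low AT1 cells overlapped the high cells of every other class. The fibroblast-marker cell at chip column 8, row 21 was the highest of the others. The log2 ratio to all other kept cells was 3.21 (3.17 to 3.25), with 2.53 in chip columns 1 to 10 against 5.03 in columns 11 to 20. To AT2 cells it was 3.85 (3.75 to 3.95). *Igfbp7* is also known as an abundant vascular transcript. Of 6 endothelial markers in the table, 2 (*Pecam1* and *Cdh5*) had reads in AT1 cells and 4 (*Cldn5*, *Kdr*, *Egfl7* and *Ramp2*) had 0, and their summed level ranged from 0 to 2.78 CPM per AT1 cell.

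Outside the alveolar classes, *Igfbp7* was read in every basal-marker cell. The 6 cells ranged from 16.3 to 1038 CPM with a median of 211 CPM, against 6 of 14 club-marker cells, from 0 to 1093 CPM with a median of 0. These basal-marker cells had 4 to 5 of 9 club markers beside 4 to 7 of 8 basal markers at 100 CPM or more, and the part of this overlap in the comparison was not tested. The ranges overlapped, and the log2 ratio of basal-marker to club-marker cells was 1.74 (1.63 to 1.84). Between these groups *Igfbp7* was the only member of 5 tested that was at least 2-fold higher, where 41.4% of 7583 genes were, and *Igfbp5*, *Igfbp6*, *Igf2r* and *Insr* were at least 2-fold lower, where 39.4% were. In ciliated-marker cells 1 cell with 351 CPM held 96.4% of the *Igfbp7* reads, and the level without it was 2.50 CPM.

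*Igfbp5*, whose product binds matrix as well as IGF, was highest in ciliated-marker cells and 1 fibroblast-marker cell. All 13 ciliated-marker cells had reads, from 3.60 to 3211 CPM with a median of 444 CPM, and 10 reached 100 CPM. The 14 club-marker cells ranged from 0 to 175 CPM with a median of 5.50 CPM, the 6 basal-marker cells from 0 to 1.41 CPM, and 1 fibroblast-marker cell (chip column 8, row 21) had 6893 CPM while the other had 0. Of the ciliated-marker cells 9 were above each of the 77 other cells that were not fibroblast-marker cells, and 18 of those 77 were above the lowest ciliated-marker cell. The summed level in ciliated-marker cells was 1027 CPM (1004 to 1050), with 1694 CPM in chip columns 1 to 10 against 502 CPM in columns 11 to 20. The log2 ratio to all other kept cells was 2.45 (2.40 to 2.49), and to the others without the fibroblast-marker cells 6.53 (6.40 to 6.66). Without those cells *Igfbp5* alone of 7 members tested was at least 2-fold higher, where 30.2% of genes were, and 5 were lower, where 42% were. With them, it was the only member of 8 tested that was at least 2-fold higher in ciliated-marker cells than in all other kept cells, where 29.5% of genes were, and 6 were at least 2-fold lower, where 43.2% were.

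In AT1 cells *Igfbp5* had 32 reads in 14 cells, with a highest value of 13.4 CPM and a level of 1.38 CPM (0.946 to 1.95). Every one of these 14 cells shared its chip column with a deposited cell at 100 CPM or more of *Igfbp5*. They were 14 of the 30 AT1 cells in such columns, against 0 of the 15 in other columns, and the part of the shared column in these reads was not tested. In AT2 cells 12 of the 13 *Igfbp5* reads were in the cell with club markers. The level was 2.01 CPM in AT2 cells (log2 ratio of AT1 to AT2 cells -0.54, -1.51 to 0.52), an interval that leaves out the spread between cells. Without the cell with club markers the log2 ratio was 3.12.

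*Igfbp2* and *Igfbp5* did not reach 100 CPM in the same kept cell. *Igfbp2* reached 100 CPM in 27 of 92 cells and *Igfbp5* in 12, with 0 cells at 100 CPM of both. The highest *Igfbp5* value among the 27 was 8.94 CPM, and the highest *Igfbp2* value among the 12 was 1.03 CPM. All 27 were AT1 cells, and the 12 were 10 ciliated-marker cells, 1 club-marker cell and 1 fibroblast-marker cell. The lack of cells in common therefore follows from the classes and is not a separate result. Among cells past the *Ager* limit that the mitochondrial share removed, *Igfbp5* reached 176 CPM.

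**Figure D2:**
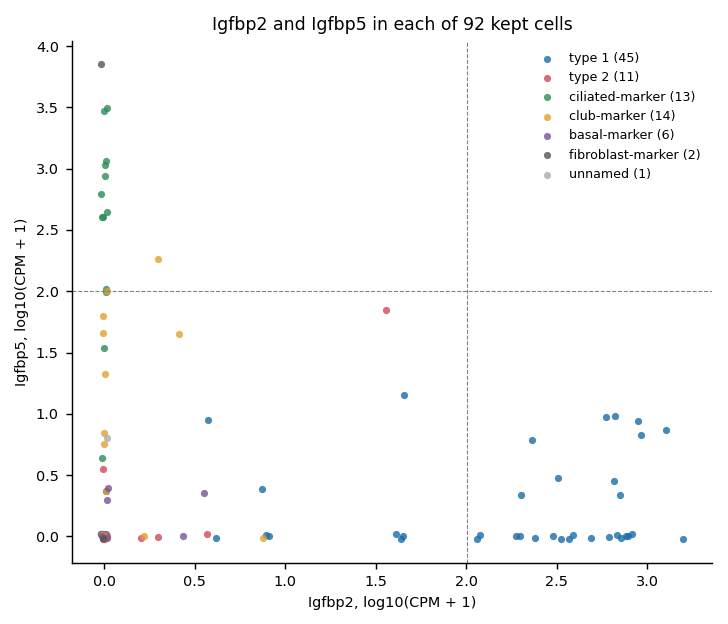
Each point is 1 of 92 kept cells, with *Igfbp2* on the x axis and *Igfbp5* on the y axis, both as log10(CPM + 1), coloured by class and shifted slightly at random so that points do not hide each other. The dashed lines mark 100 CPM, and the upper right quadrant holds 0 cells.

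*Igfbp3* and *Igfbp4* were read almost only in the 2 fibroblast-marker cells, and each in a different one. *Igfbp3*, the main carrier of IGF in blood, had 459 reads in kept cells, of which 457 were in the cell at chip column 5, row 5 (332 CPM) and 2 in the cell at chip column 8, row 21. In AT1 and AT2 cells it had 0 reads, with exact upper limits of 0.159 CPM and 0.570 CPM. *Igfbp4*, cleaved by the protease PAPP-A, had 1942 reads, of which 1940 were in the cell at chip column 8, row 21 (1535 CPM), with 1 read in 1 AT1 cell and 1 in 1 AT2 cell. These 2 cells had 5 and 3 of 7 fibroblast markers at 100 CPM or more, the second also with 4 AT1 markers, although the sort was for E-cadherin+ cells. A pattern that rests on 1 cell per gene is a value of that cell.

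**Figure D3:**
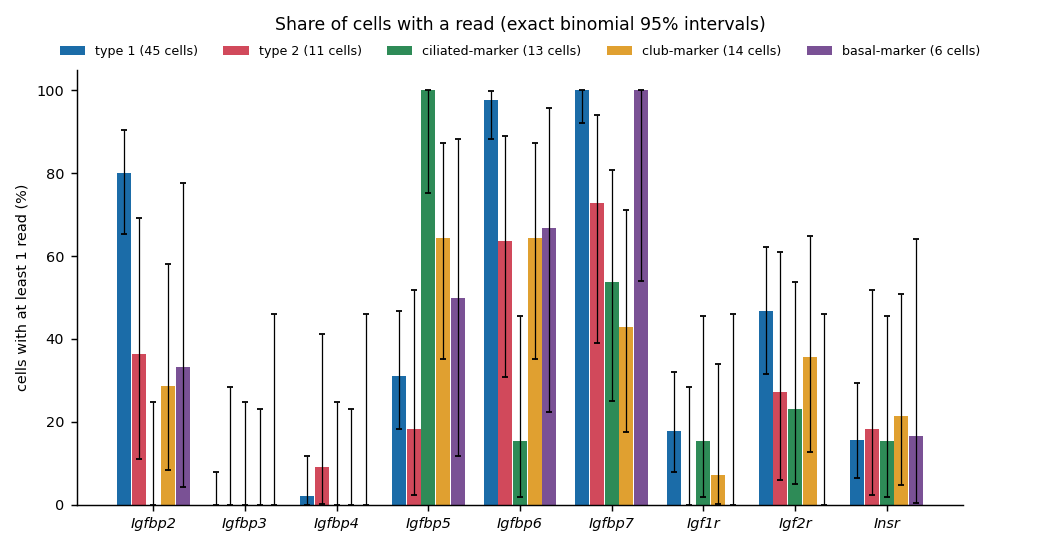
Bars give the percentage of cells with at least 1 read of each gene in AT1 (type 1), AT2 (type 2), ciliated-marker, club-marker and basal-marker cells, and lines are exact 95% binomial intervals. *Igfbp7* was read in all AT1 and all basal-marker cells, *Igfbp5* in all ciliated-marker cells, and no receptor gene in more than 46.7% of the cells of these classes.

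The receptor genes were low and sparse. *Igf2r* was read in 21 of 45 AT1 cells (46.7%, 31.7 to 62.1), from 0 to 1241 CPM with a median of 0. It had reads in 3 of 11 AT2 cells, up to 100.4 CPM, in 5 of 14 club-marker cells, up to 571 CPM, in 3 of 13 ciliated-marker cells, up to 75.6 CPM, and in 0 of 6 basal-marker cells. The groups overlapped, and only 2 AT1 cells were above every other kept cell. The AT1 level was 85.8 CPM, or 49.97 CPM without its highest cell, and the log2 ratio to all other kept cells was 1.83 (1.71 to 1.95). *Igf2r* shares 28354 bases with *Airn*, a noncoding RNA on the opposite strand, and the strand setting of the counting is not given in the sources used here, so reads that fall in the shared bases cannot be told apart by strand. *Airn* had reads in 3 kept cells and *Igf2r* in 32, with 1 cell in common. The log2 ratio of *Igf2r* to all other kept cells, at 0.94 in chip columns 1 to 10, stood at 3.08 in columns 11 to 20.

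*Igf1r* was read in 8 of 45 AT1 cells (17.8%, 8.002 to 32.05), at 676, 467, 450, 100.5, 19.98, 17.6, 5.22 and 4.25 CPM. In the rest 4 of 36 cells had reads, up to 403 CPM in a ciliated-marker cell, and 0 of 11 AT2 cells did. The AT1 level of 32.9 CPM fell to 11.8 CPM without the highest cell, which held 65.2% of the reads. The log2 ratio was 2.41 (2.18 to 2.63) to all other kept cells. Against AT2 cells, with 3 counts over the 11 cells in place of 0 reads, the AT1 level was 71.03-fold higher (log2 6.15). Those 3 counts are 0.463 CPM, under the exact upper limit of 0.570 CPM for AT2 cells, so this ratio is not a lower bound. The ratio at 3 counts was 4.67 on the log2 scale without the highest AT1 cell, 3.53 in chip columns 1 to 10 and 3.48 with the limit on the mitochondrial share at 0.10. With no such limit the log2 ratio to all other kept cells was 0.60. The upper limit of the share that 0 of 11 AT2 cells allows is 28.5%, so a difference in the share of cells was not detectable at this number.

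*Insr*, the insulin receptor gene, was read in 7 of 45 AT1 cells, up to 378 CPM, and in 7 of 36 cells of the rest, up to 334 CPM. In AT2 cells 2 of 11 had reads, at 280 CPM and 103.03 CPM. The level was 13.6 CPM in AT1, 70.2 CPM in AT2 and 20.7 CPM in the rest, and the log2 ratio of AT1 to all other kept cells was -1.15 (-1.34 to -0.97). Without the highest cell of each class the level was 7.81 CPM in AT2 and 6.65 CPM in AT1 cells (log2 ratio -0.23). With the limit on the mitochondrial share at 0.10, the log2 ratios of AT1 to all other kept cells became 0.43 for *Igf1r*, -0.38 for *Igf2r* and 3.08 for *Insr*. The direction of the *Igf2r* and *Insr* ratios thus changed with the cells that were kept.

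Against AT2 cells, 6 members had 10 CPM or more in either class, of which 5 were at least 2-fold higher in AT1 cells, where 51.4% of 8796 genes were, and *Insr* was lower, where 24.3% were. Against the rest, 5 of 9 members were higher in AT1 cells, where 33.4% of genes were, and 3 were lower, where 34.8% were. From the rest to AT2 cells, 1 of 7 tested members was higher, *Insr*, where 21.7% of genes were, and 5 were lower, where 51% were. Between AT1 and AT2 cells the median log2 ratio was 4.34 over these 6 members and 1.13 over all genes tested. At least 1 receptor was read in 31 of 45 AT1 cells, 3 of 11 AT2 cells and 15 of 36 cells of the rest. After each cell was thinned to 90000 reads, 26 AT1 cells had a read. The tyrosine kinase receptors *Igf1r* and *Insr* were read together in 1 AT1 cell and at least 1 of them in 14, and 0 AT1 cells had reads of all 3 receptors.

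**Figure D4:**
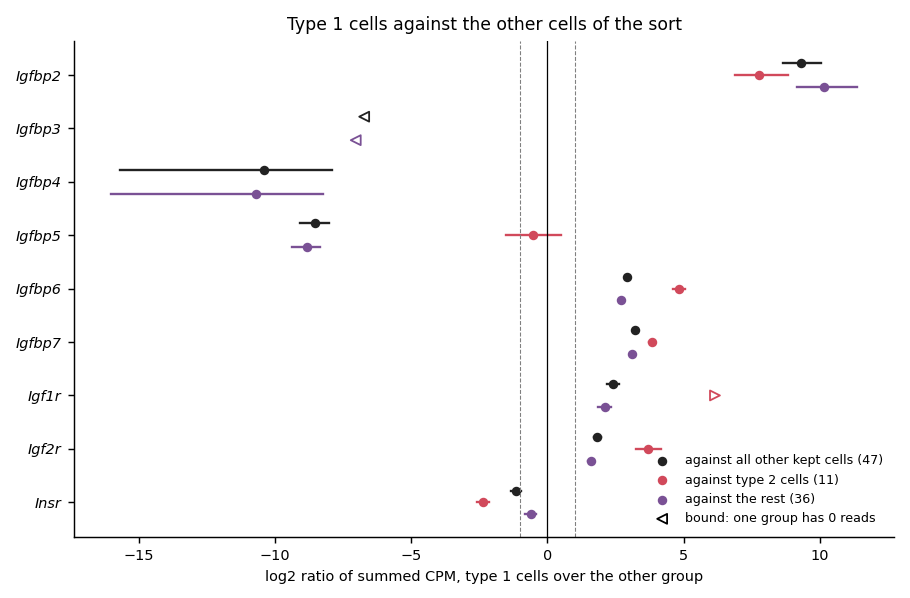
Points are log2 ratios of summed CPM, AT1 (type 1) cells over all other kept cells (black), AT2 (type 2) cells (red) and the rest (purple), with 95% counting intervals. Open triangles are values with a group of 0 reads set to 3 counts, and they are not 95% bounds. The solid line is no difference and the dashed lines are 2-fold. Against all other kept cells, *Igfbp2* lies farthest to the right, *Igfbp4* and *Igfbp5* farthest to the left, and *Insr* is the only receptor left of 0.

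Among AT1 cells, *Igfbp7* varied least of the 3 binding proteins. Its coefficient of variation over 45 cells was 72.5%, against 105.5% for *Igfbp6* and 112.4% for *Igfbp2*. The AT1 markers *Ager* (32.02%) and *Hopx* (49.6%) varied less, *Gprc5a* (76.3%) and *Cav1* (90.3%) lay near *Igfbp7*, and *Pdpn* (122.6%) above *Igfbp2*. The receptors had 259% (*Igf2r*), 353% (*Igf1r*) and 428% (*Insr*). The median of 1915 genes of at least 100 CPM was 212%. The receptors, at 85.8, 32.9 and 13.6 CPM in AT1 cells, are not in that set, and genes of their level were not compared. The variation is that of single cells of 1 mouse, with counting and amplification error included.

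Each of the 45 AT1 cells had at least 1 of *Igfbp2*, *Igfbp6* and *Igfbp7* at 100 CPM or more. All 3 reached it in 21 cells, *Igfbp6* with *Igfbp7* in 11, *Igfbp7* alone in 5, *Igfbp2* with *Igfbp7* in 4, *Igfbp6* alone in 2, and *Igfbp2* alone and *Igfbp2* with *Igfbp6* in 1 cell each. *Igfbp2* was thus missing at this level from 18 cells, *Igfbp6* from 10 and *Igfbp7* from 4. The 9 AT1 cells with 0 *Igfbp2* reads had a median of 1237 CPM of *Igfbp6* and 1402 CPM of *Igfbp7*, against 576 CPM and 1991 CPM in the 36 cells with an *Igfbp2* read, and the ranges overlapped for both genes. Their median *Ager* level was 20400 CPM against 21992 CPM, and their median depth 380690 against 483357 reads. In the shallowest of the 9, 3 reads would be 19.1 CPM.

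**Figure D5:**
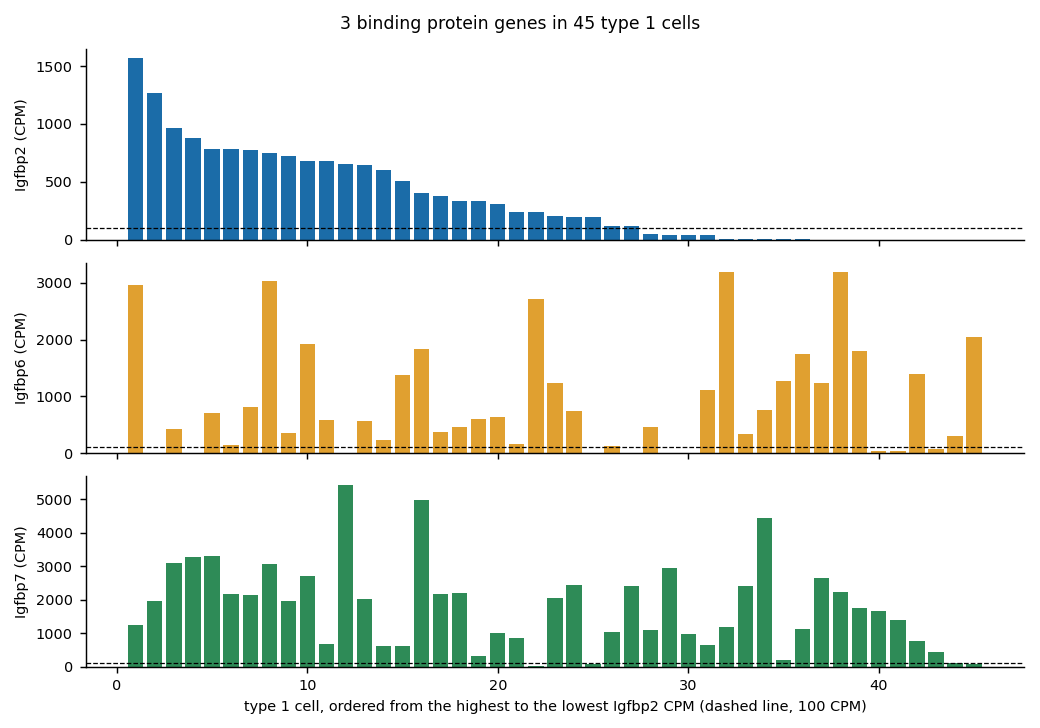
The bars give CPM of *Igfbp2* (top), *Igfbp6* (middle) and *Igfbp7* (bottom) in each of 45 AT1 (type 1) cells, in the same order in all panels, from the highest to the lowest *Igfbp2*, and the dashed line marks 100 CPM. High *Igfbp6* occurs among cells with the most and with the least *Igfbp2*.

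Over the 45 AT1 cells, Spearman's rho was 0.34 between *Igfbp2* and *Igfbp7* (0.31 in chip columns 1 to 10, 0.34 in columns 11 to 20), -0.11 between *Igfbp2* and *Igfbp6* (-0.23 and 0.37) and -0.06 between *Igfbp6* and *Igfbp7* (-0.12 and 0.29). With the total reads of a cell rho was -0.03 for *Igfbp2*, -0.15 for *Igfbp6* and 0.01 for *Igfbp7*. These are descriptions of cells of 1 mouse on 1 chip, and the sign of the second and of the last pair differed between these ranges of columns. Among 1460 genes with reads in at least 50% of AT1 cells, those most like *Igfbp2* by rho were *Prss8*, a membrane serine protease of epithelia (0.51), *Cr1l*, a complement regulator (0.47), and *Gm14414* (0.45). Those most like *Igfbp6* were *Srrm2* (0.44), *Epb4.1l5* (0.43) and *Rnase4* (0.41), and those most like *Igfbp7* were *Tmem37* (0.44), *Selenbp1* (0.42) and *Cux1* (0.41). The genes nearest *Igfbp2* were low, with AT1 medians of 2.73, 2.79 and 7.49 CPM and reads in 23, 26 and 29 cells. Medians were 187, 277 and 5.30 CPM for those nearest *Igfbp6*, and 11.8, 1266 and 8.33 CPM for those nearest *Igfbp7*. All were picked as the highest among 1460 genes, and the rho that unrelated genes would reach was not tested.

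Of 65 further genes listed for the pathway, 48 were rows of the table and 42 could be compared, of which 13 were at least 2-fold higher and 10 at least 2-fold lower in AT1 cells than in all other kept cells, against 32.4% and 34% of all genes. Of 4 tested genes of other binding proteins and proteins with an IGFBP domain 1 was higher and 1 lower, and of 3 tested genes of other receptors and sorting 1 was higher and 2 lower. That 1 higher receptor or sorting gene had reads in 2 AT1 cells. It fell from 39.6 to 0.0884 CPM without the highest AT1 cell, against 0.152 CPM in the others without theirs. Among 5 listed proteases and inhibitors in the table, 4 were tested, 2 of them higher and 1 lower, the lower one with reads in only 1 cell of the others. *Pappa*, the gene of the PAPP-A protease that cleaves IGFBP4, was at 64.6 CPM in AT1 cells and 0.0597 CPM in the others, where it had 2 reads in 2 cells, and its reads came from 6 of 45 AT1 cells. *Htra1*, a secreted serine protease with an IGFBP domain, was at 240 CPM, with reads in 28 of 45 AT1 cells and 3 of 47 others (log2 2.90, 2.808 to 2.998), and the level in the others was 32.2 CPM, or 0.0620 CPM without their highest cell. *Crim1*, a membrane protein with an IGFBP domain, was lower in AT1 cells, at 0.735 against 54.3 CPM (log2 -6.21), with reads in 7 AT1 cells and 9 others.

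Of 10 tested adaptor and feedback genes 3 were higher and 2 lower. One of the higher genes fell from 33.1 to 5.06 CPM without its highest AT1 cell, against 6.41 CPM in the others without theirs. *Socs2*, a suppressor of growth hormone signalling, was lower, at 0.778 CPM in AT1 cells and 151 CPM in the others, with reads in 13 of 45 and 28 of 47 cells (log2 -7.60, -8.35 to -6.94). Of 21 tested genes of the PI3K and AKT arm 6 were higher and 4 lower. *Foxo3* (141.2 against 13.6 CPM, log2 3.37) and *Akt1* (63.9 against 6.80 CPM, log2 3.23) were higher. Each had reads in 16 AT1 cells, and *Foxo3* in 11 and *Akt1* in 13 of the 47 others, and without the highest AT1 cell they stood at 92.2 and 36.7 CPM. *Mtor* was at 66.5 against 0.119 CPM but was read in 5 AT1 cells only, and *Rptor*, a partner of the mTOR kinase, was lower (11.8 against 59.4 CPM, log2 -2.33), read in 6 and 8 cells. The median log2 ratio over the 42 tested genes was 0.41, and over all genes tested 0.02.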

How the data were processed

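The values used are raw counts of reads per gene in whole numbers, which the authors deposited without normalization as 1 column per cell. Per the labels, the reads were processed with FastQC, Trim Galore, HISAT2 (build GRCm38) and featureCounts. The strand setting is not given in the sources used here. Library depth was 91402 to 2170760 reads per cell. From the deposited counts, cells were kept with more than 90000 reads, more than 500 genes and a share of mt- genes below 0.15, which left 92. A class level is the CPM of its summed counts. A gene was tested where either class had 10 CPM or more, and a call is a ratio of at least 2-fold. A group with 0 reads was taken at 3 counts over the group. The members and gene lists were chosen with earlier results of these data known.

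Named were all 9 members, the 3 genes nearest in rho to each member read in at least 50% of AT1 cells, and up to 8 pathway genes by ratio among those past 2-fold and 50 CPM. *Igf1*, *Igf2*, *Igfals*, *Ins1*, *Ins2* and *Igfbp1* were not analysed here. Doublets were not called. The authors kept sites that microscopy showed to hold single cells. That 0 cells passed both class limits bears only on mixtures of AT1 with AT2 cells, and other mixtures were not tested. Positions are from GENCODE vM21 and promoter sequences from RefSeq (GRCm38.p6), where 8 of 9 members had an entry and the first of the 2 for *Igfbp2* was used. Python 3.11.15 with numpy 2.4.6, scipy 1.17.1 and pandas 2.3.3 and, for size factors, scran 1.30.0 in R 4.3.3 were used. The steps were tested on simulated data, with the same dispersion for every gene and changes only in genes of at least 50 CPM. The simulation does not show how the steps perform for sparse genes such as the receptors. Alternatives changed the cell and class limits, the scaling, the weighting of cells, the range of chip columns and single cells. The limit of 40% for the marker lists and the fits without the fibroblast-marker cells or an AT2 cell were chosen after seeing the data.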

Additional observations from a re-analysis of the deposited data

Results flagged for a closer look

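Cells past the *Ager* limit that the mitochondrial share removed entered the class comparisons only in the alternative with no limit on that share. They had reads of 7 members. In these 19 cells *Igfbp2* stood at 464 CPM (14 cells with a read), *Igfbp6* at 528 CPM (17 cells) and *Igfbp7* at 1484 CPM (17 cells). *Igfbp5* stood at 12.7 CPM (3 cells), *Igf1r* at 68.7 CPM (6 cells), *Igf2r* at 29.1 CPM (6 cells) and *Insr* at 19.4 CPM (4 cells). *Igfbp3* and *Igfbp4* had 0 reads in them. There are no control samples, and each of these 7 values is above the level that a count of 0 allows. In the kept AT1 cells *Igfbp2* stood at 337 CPM and *Igfbp5* at 1.38 CPM. The median *Igfbp2* value was 168 CPM in the removed and 207 CPM in the kept AT1 cells, so the order of the summed level and of the median differed. The difference between kept and removed cells was not tested.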

How the results depend on the processing

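Across 15 alternatives each, *Igfbp2*, *Igfbp6* and *Igfbp7* stayed at least 2-fold higher in AT1 cells than in all other kept cells and than in AT2 cells, with lowest log2 ratios against all others of 6.65 (*Ager* limit at 10000 CPM), 2.54 and 2.53 (both in chip columns 1 to 10). *Igfbp5* stayed at least 2-fold lower than in all other kept cells under all 15 (log2 -8.64 to -6.68). The number of higher members was 4 or 5 under every alternative, in both comparisons, but the members differed. Against all other kept cells *Igf1r* was under 2-fold with the mt- limit at 0.10 (0.43) and with no limit (0.60), and *Igf2r* in chip columns 1 to 10 (0.94). The 4 lower members became 2 with the mt- limit at 0.10, with scran size factors, with the mean of the CPM of cells, without the highest cell of each group, in chip columns 11 to 20 and with a filter of 50 CPM, and 1 without the fibroblast-marker cells. The 1 member lower than in AT2 cells became 0 with the mt- limit at 0.10, with scran size factors, without the highest cells and in chip columns 1 to 10, and 2 with the *Sftpc* limit at 4000 CPM. With the mt- limit at 0.10 the log2 ratio of AT1 to all other kept cells reversed to -0.38 for *Igf2r* and 3.08 for *Insr*, and to AT2 cells to 0.83 for *Insr*, which was 0.24 in chip columns 1 to 10. The cause was not tested. The share of AT1 cells among kept cells was 38% with the mt- limit at 0.10. The share of AT1 cells with an *Igfbp6* read was 100% in chip columns 11 to 20, 86.7% after thinning and 84.4% at 10 CPM or more. *Igfbp5* in ciliated-marker cells was 897 CPM with a marker limit of 30% and 1045 CPM with 60%, limits chosen after seeing the data. No cell passed both class limits, so moving such cells changed no value. No paired analysis was possible because all cells come from 1 mouse and form 1 group.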

Other observations

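Cells removed for their mitochondrial share and outside both class limits numbered 14, and their summed *Igf1r* level was 231 CPM. Its reads were in 3 of the 14, with 2134 CPM in the highest, above every kept cell. In the 16 removed cells past the *Sftpc* limit *Igf1r* had 0 reads, as in the 11 kept AT2 cells, and *Insr* had reads in 4.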
